A study of Rattus norvegicus with 9 samples.

Results

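The voltage-gated calcium channel subunits examined here are 10 genes with a named probe on the array, 1 probe each, out of 10412 genes named on it. They were taken by symbol: Cacna1a, Cacna1b, Cacna1c, Cacna1e, Cacna1g, Cacna1h, Cacna2d1, Cacnb3, Cacnb4 and Cacng2, and all 10 had a probe. In the RefSeq annotation of build GRCr8 they lie on chromosomes 19 (Cacna1a), 3 (Cacna1b, Cacnb4), 4 (Cacna1c, Cacna2d1), 13 (Cacna1e), 10 (Cacna1g, Cacna1h) and 7 (Cacnb3, Cacng2). Cortex came from 9 rats of the outbred Sprague-Dawley strain, with 1 Illumina bead array per animal: 4 irradiated males and 5 irradiated females, all 60 days old. Every animal had been exposed in the womb to 145 cGy from a caesium-137 source on gestation day 17, and the series uses such animals to model cortical dysplasia, in which the layers of the cortex are malformed. The design's unirradiated controls are not analysed here, and none of the values measures an effect of radiation. The comparisons available are those between males and females and between 3 numbers in the sample titles, in the order of the numbers called the first, the second and the third title number, whose meaning the labels do not give.

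Voltage-gated calcium channels open when a neuron's membrane depolarises and let calcium in, which triggers transmitter release, drives dendritic calcium spikes and signals to the nucleus. Each channel is built around a pore-forming alpha1 subunit that sets its type. High-voltage-activated pores (the L, P/Q, N and R types) assemble with a cytoplasmic beta subunit and an extracellular alpha2delta subunit, which raise the number of channels at the membrane. Low-voltage-activated T-type pores open near the resting potential, support rhythmic firing in thalamus and cortex, and work without those partners. Calcium channels are known targets of drugs against epilepsy, a common outcome of cortical malformation.

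Of the 10 probes, 7 were above the background bound on all 9 arrays, and all 10 exceeded it on at least 4 arrays and were tested. The bound is the 99th percentile, on each array, of the 6605 probes absent from the authors' value table, between 46.6 and 54.1 intensity units. The exceptions were Cacna1a, above the bound on 4 arrays, and Cacna1b and Cacna1e, each on 8. Levels are log2 intensities after background correction and quantile normalisation. A probe's level is set only against itself in other animals, since probes differ in brightness for reasons other than RNA amount. In whole cortex, fewer cells of a type and less RNA per cell cannot be told apart.

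Markers of cortical cells were present: all 4 glutamatergic, 6 GABAergic and 6 astrocyte markers with a probe exceeded the bound on every array. So did all 7 striatal markers with a probe, whose summed level lay between 2254 and 4355 in males and between 2920 and 5640 in females. On the first principal component of the 12370 tested probes, female 1, male 2 and female 3 stood apart, at scores from 16.1 to 19.0, against -13.1 to -4.53 on the other 6 arrays. These 3 arrays hold both sexes and 2 title numbers, and results that rest on them are given with and without them. The summed marker level on these 3 arrays overlapped that of the other 6 for 13 of 13 lists of cell type and tissue markers. Such a sum mostly follows its brightest probes, so overlap does not show that tissue makeup was alike. What set these 3 arrays apart was not tested. Their median raw intensities, from 49.2 to 57.2, also lay among or close to those of the others (47.9 to 54.3).

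The stretches of 250 bases before the transcription start are shown for Cacna1e, Cacnb3 and Cacna2d1, because these are members whose level on the 3 arrays did not overlap the others and for which RefSeq (build GRCr8) lists a start. They are written 5' to 3' on the gene's strand, with every GC box (GGGCGG, or CCGCCC on the other strand) in capitals.
Cacna1e, chr13:69444811-69445060, minus strand: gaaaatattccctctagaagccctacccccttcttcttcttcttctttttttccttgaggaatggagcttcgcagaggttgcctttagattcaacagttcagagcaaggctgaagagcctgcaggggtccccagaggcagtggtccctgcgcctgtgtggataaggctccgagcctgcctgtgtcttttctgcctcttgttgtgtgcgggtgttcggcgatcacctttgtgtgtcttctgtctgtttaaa
Cacnb3, chr7:131666301-131666550, plus strand: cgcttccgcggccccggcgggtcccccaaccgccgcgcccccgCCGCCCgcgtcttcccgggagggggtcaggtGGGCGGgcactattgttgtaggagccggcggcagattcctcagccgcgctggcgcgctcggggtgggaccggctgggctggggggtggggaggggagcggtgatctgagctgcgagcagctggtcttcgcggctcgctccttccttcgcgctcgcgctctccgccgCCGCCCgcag
Cacna2d1, chr4:20330148-20330397, minus strand: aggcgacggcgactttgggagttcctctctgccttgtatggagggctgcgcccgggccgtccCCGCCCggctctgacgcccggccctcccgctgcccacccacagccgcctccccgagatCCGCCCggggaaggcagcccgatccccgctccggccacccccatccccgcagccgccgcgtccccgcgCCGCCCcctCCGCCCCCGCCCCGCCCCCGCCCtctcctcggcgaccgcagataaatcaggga
The Cacna1e stretch held 0 GC boxes and was 51.2% G and C, which equals the median of all 33469 promoters in the table. The Cacnb3 stretch held 3 GC boxes at 76.4% G and C, and that of Cacna2d1, the first of its 3 listed starts in the direction of transcription, held 7 at 77.2%. A GC box occurred before at least 1 start of 4 of the 7 members with an entry, against 30.5% of all promoters. The element GCGGGGGCG (or its reverse CGCCCCCGC), whose letters can overlap a GC box, occurred for Cacna1b, Cacna2d1 and Cacnb3, against 2.45% of all promoters. The E-box CACGTG and the cyclic AMP element TGACGTCA occurred for 0 of the 7, against 5.59% and 1.59% of all promoters. Cacna1g, Cacna1h and Cacnb4 had no entry. These matches describe the letters of the reference genome, not binding.

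Among the pore subunits of the presynaptic channels, Cacna1a encodes the P/Q-type pore that dominates fast transmitter release. Its probe read 5.15, 4.79, 4.53 and 5.17 in males 1 to 4, against 5.08, 4.94, 4.76, 4.99 and 5.07 in females 1 to 5. Only 2 of 4 males and 2 of 5 females exceeded the bound, so its level lay at the edge of what the array measured. Cacna1b, the N-type pore and the target of the pain drug ziconotide, read 4.97, 5.14, 5.24 and 5.46 in males, against 5.19, 5.29, 5.16, 5.42 and 5.37 in females. The sexes overlapped for both genes, and male 4 was highest for both.

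Cacna1e, the R-type pore found in dendrites and terminals, read 5.18, 5.39, 5.13 and 5.23 in males, against 5.42, 5.10, 5.39, 4.998 and 5.18 in females. The 3 highest values were those of female 1, female 3 and male 2, from 5.39 to 5.42, and the other 6 animals lay from 4.998 to 5.23. The raw intensities behind them were low, from 46.1 to 67.2, and female 4, the lowest, was under the bound.

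Cacna1c encodes the L-type pore that couples synaptic activity to gene expression. It read 6.37, 6.15, 6.29 and 6.15 in males, against 6.13, 6.23, 6.36, 6.52 and 6.36 in females. All 9 values fell within 1.31-fold of each other, with female 4 highest. Its SD within sex of 0.13 was at the 28.0th percentile of the tested probes, among the steadier members.

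The T-type pores varied far more. Cacna1g, which serves burst firing, read 7.25, 6.64, 7.30 and 7.14 in males, against 6.84, 7.28, 6.79, 7.75 and 7.14 in females. Female 4 stood highest, male 2, female 3 and female 1 lowest, and the whole span was 2.16-fold. Its SD within sex of 0.35 was at the 95.4th percentile of tested probes. Cacna1h, the T-type pore whose variants have been linked to absence epilepsy in people, read 5.65, 5.06, 6.08 and 5.81 in males, against 5.85, 5.95, 5.55, 6.24 and 5.68 in females. Male 2 was lowest and female 4 highest, 2.27-fold apart, and the SD within sex of 0.35 was at the 94.9th percentile. The raw Cacna1h intensity in male 2, 51.72, was barely above that array's bound of 51.45, so the low end of this span lay near background.

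Female 4 also differed in tissue markers. The summed level of 4 thalamic markers with a probe, 2 of which were above the bound on all arrays, was 922 in female 4, against 386 to 584 elsewhere. The summed level of 3 hippocampal markers, 2 of them above the bound on all arrays, was 1765 in female 4, against 1033 to 1585 elsewhere. The summed level of 5 oligodendrocyte markers was 3044 in female 4, against 4910 to 8672 elsewhere. The summed level of 4 glutamatergic cortical markers was lowest in female 4, at 8985 against 9971 to 11086 elsewhere. That of 4 cerebellar markers, of which 2 exceeded the bound everywhere and 1 nowhere, was highest in female 4, at 1703 against 1019 to 1571. Calb1 is on both the hippocampal and the cerebellar list, so these sums are not separate readings. Its bright probe, averaging 10.03 in males and 10.26 in females (log2), makes up much of both. Zic1 is likewise listed for both thalamus and cerebellum. No marker of the thalamic, hippocampal and oligodendrocyte lists was below the bound on every array. T-type channels are abundant in thalamus, and the part of these markers in the Cacna1g and Cacna1h values was not tested.

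Cacna2d1 encodes the alpha2delta-1 subunit, the binding site of gabapentin and pregabalin. Its raw intensities were 1521, 2162, 1144 and 1303 in males, against 3141, 1073, 2175, 1784 and 1465 in females. After normalisation it read 10.37, 11.15, 10.27 and 10.39 in males, against 11.36, 10.16, 11.30, 10.76 and 10.47 in females. It was the most variable member: its SD within sex of 0.48 was at the 98.7th percentile, and the highest animal, female 1, read 2.30-fold above the lowest, female 2. Female 1, female 3 and male 2 lay from 11.15 to 11.36 and the other 6 from 10.16 to 10.76, with no value between. In female 1 the summed level of 5 choroid plexus markers, 1 of them above the bound on all arrays, was 4518. That sum was 192 in male 2 and 205 in female 3, which also read high for Cacna2d1. In female 5, which did not, it was 881. The part of these markers in the Cacna2d1 values was not tested.

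The beta subunits read in opposite directions on the 3 arrays that stand apart. Across all 9 animals their r was -0.71, and the pair did not pass adjustment (exact permutation p = 0.0329, adjusted p = 0.135). Cacnb3, a beta subunit common in forebrain N- and L-type channels, read 10.41, 9.89, 10.33 and 10.31 in males, against 10.19, 10.24, 10.01, 10.44 and 10.23 in females. Male 2, female 3 and female 1 were its 3 lowest animals. Cacnb4, whose loss causes the lethargic phenotype of ataxia and seizures in mice, read 6.19, 6.50, 6.19 and 6.19 in males, against 6.69, 6.16, 6.44, 5.93 and 6.20 in females. The same 3 animals were its highest, and female 4 its lowest.

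Cacng2 (stargazin) is counted in the gamma family by sequence and is known mainly as a partner that carries AMPA-type glutamate receptors to the synapse. It read 9.20, 8.94, 9.02 and 9.17 in males, against 9.14, 9.23, 9.26, 9.06 and 8.91 in females. It spanned 1.27-fold, the narrowest of the 10, at the 30.5th percentile of SD within sex.

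**Figure D1:**
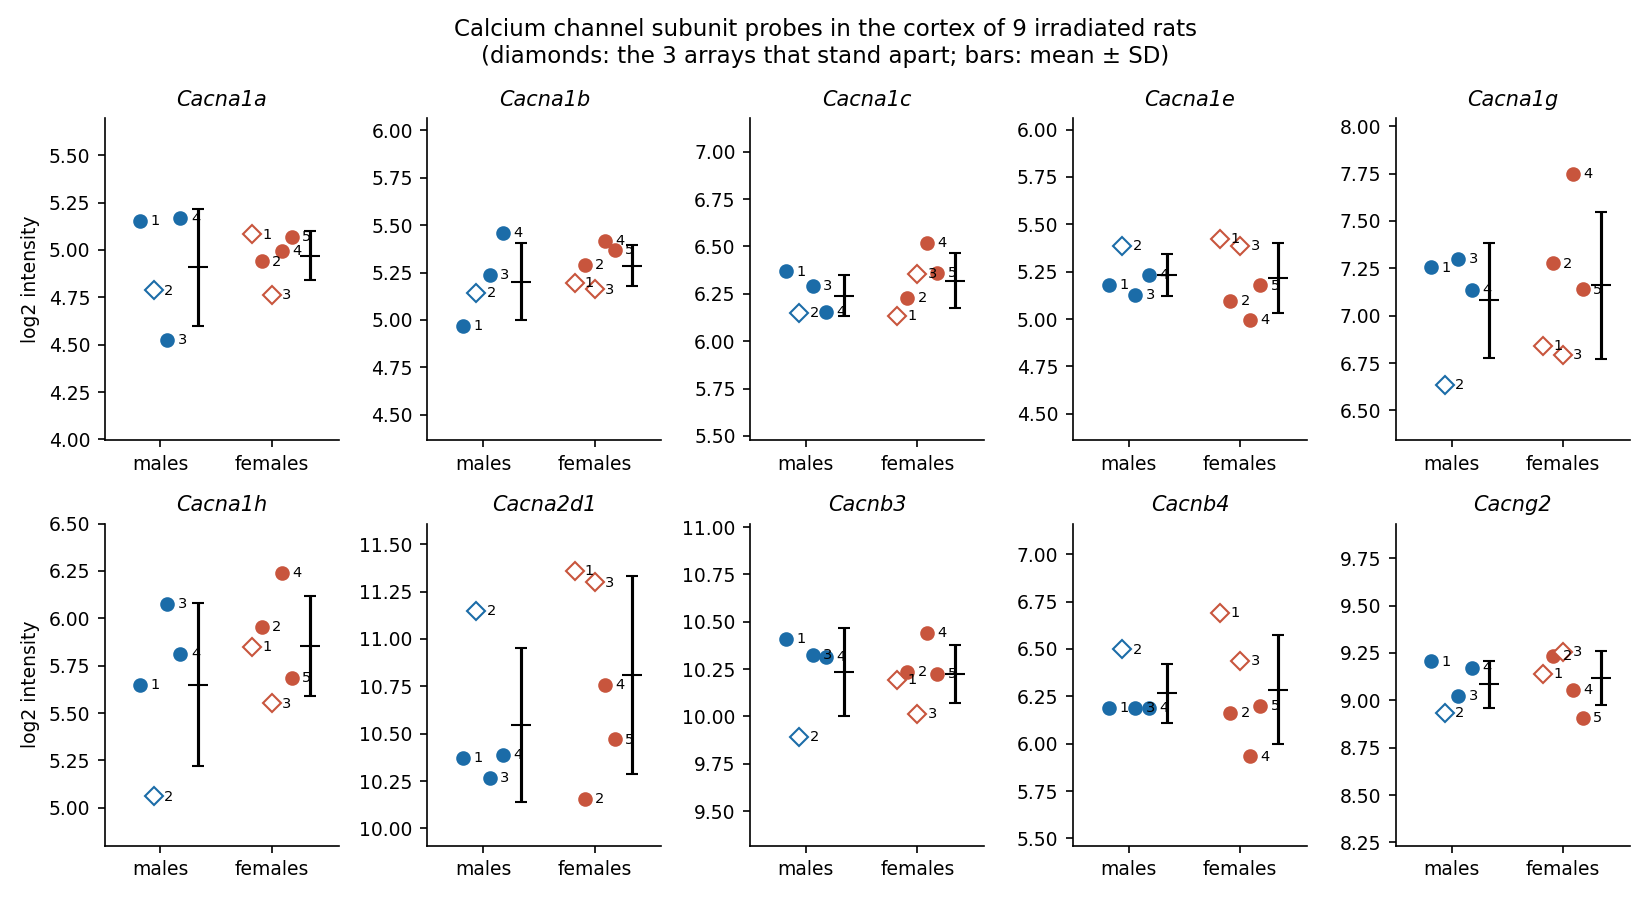
Log2 intensity (y axis, each panel covering an equal log2 range) of the 10 subunit probes in 4 males (blue) and 5 females (red), numbered by animal, with the mean and SD of each sex as a bar. Diamonds mark female 1, male 2 and female 3, which lie together at the top for Cacna1e, Cacna2d1 and Cacnb4 and at the bottom for Cacna1g and Cacnb3.

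Seen together, the members fell into sets that ran in opposite directions on the 3 arrays. On these arrays Cacna2d1, Cacna1e and Cacnb4 read above all of the other 6, and Cacna1g and Cacnb3 read below all of them. That made 5 of 10 members whose values did not overlap, against 20.9% of all tested probes, 10.2% above and 10.7% below. The arrays were singled out from the same expression values, so this is a description and carries no test. For Cacnb3 the non-overlap held in the authors' log2 values and was lost under median scaling, and the other 4 did not overlap under either. Of 8 other channel subunits with a probe, 1 did not overlap: Cacnb1, the beta subunit of skeletal muscle channels that brain also makes, read from 7.38 to 7.58 on the 3 arrays and from 7.64 to 8.19 on the others, and overlapped under median scaling.

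Levels of pairs of members were compared across the 9 animals in 45 correlations, each with an exact two-sided permutation test over 362880 pairings and Benjamini-Hochberg adjustment over the 45. Probes on the same array share its overall depth and tissue makeup, so correlations between probes across arrays are not independent of these. For Pearson's r, 4 pairs passed an adjusted p of 0.05, 2 positive and 2 negative. None did for Spearman's rho, where 0 pairs passed and the smallest adjusted p was 0.0692.

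Cacna1e and Cacna1g, the R-type and a T-type pore, ran opposite ways at r = -0.95 (exact permutation p = 0.000295, adjusted p = 0.00663, n = 9), with rho = -0.90 (exact p = 0.00203). Over the 6 arrays that did not stand apart, r was -0.92 (exact p = 0.00972, adjusted p = 0.344) and rho -0.89 (exact p = 0.0333). Leaving out the 2 animals farthest from the median of Cacna1e, female 1 and female 3, gave r = -0.97. Cacna1e and Cacnb4 ran together at r = 0.95 (exact p = 0.000127, adjusted p = 0.00570) and rho = 0.83 (exact p = 0.00827). Over the 6 arrays that r was 0.85 (exact p = 0.0306, adjusted p = 0.344) but rho was 0.49 (exact p = 0.356). Without the 2 farthest animals r was 0.95.

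Cacna1g and Cacnb4 ran opposite ways at r = -0.90 (exact p = 0.00113, adjusted p = 0.0127) and rho = -0.78 (exact p = 0.0172). Over the 6 arrays r was -0.96 (exact p = 0.0389) while rho was -0.43 (exact p = 0.419), and female 4 had both the highest Cacna1g and the lowest Cacnb4. Without female 4 r was -0.85 and the adjusted p 0.0625 by the exact test, and without female 4 and male 2, the farthest animals, r was -0.86 and the adjusted p 0.137. Cacna1g and Cacnb3 ran together at r = 0.88 (exact p = 0.00108, adjusted p = 0.0127) and rho = 0.88 (exact p = 0.00308). That r was 0.69 over the 6 arrays (exact p = 0.0806), where rho was 0.60 (exact p = 0.242), and 0.80 without female 4 and male 2 (adjusted p = 0.110 by the exact test). Without male 2 or without female 3, the pairs of Cacna1g with Cacnb3 and with Cacnb4 missed the threshold, at adjusted p from 0.0551 to 0.126 by the exact test.

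Over the 6 arrays 0 of 45 pairs passed after adjustment in the exact test, and 6 had an unadjusted p under 0.05, a design in which only 720 pairings exist. With so few pairings, a pair could not pass adjustment over the 45 on its own, however strong its r. Among these 6 arrays the T-type pores Cacna1g and Cacna1h had r = 0.81 (exact p = 0.0250) and rho = 0.77 (exact p = 0.103), against an r of 0.83 over all 9 (exact p = 0.00738, adjusted p = 0.0553) and 0.52 without female 4 and male 2. An absolute r of at least 0.8 was reached by 6 of the 45 pairs (13.3%) over 9 arrays, against 3.01% of all pairs of tested probes. Over the 6 arrays it was 5 of 45 (11.1%), against 6.38%.

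For Cacna2d1, Pearson's r with several members differed in sign between all 9 arrays and the 6 that do not stand apart. This change was not tested. The values of Cacna2d1 formed separate clusters, so its coefficients over all 9 arrays rest on the 3 that stand apart. They were 0.77 with Cacna1e, 0.74 with Cacnb4, -0.62 with Cacna1g and -0.63 with Cacnb3. Within the other 6 arrays each of the 4 had the opposite sign, at -0.46, -0.79, 0.68 and 0.60, with exact p from 0.160 to 0.360. By rank the 6 arrays gave rho of -0.029 with Cacna1e, -0.086 with Cacnb4, -0.029 with Cacna1g and 0.26 with Cacnb3 (exact p from 0.658 to 1), so the sign with Cacna1g did not turn by rank. Among these 6 arrays female 4 had the highest Cacna2d1 as well as the highest Cacna1g. Without female 4 and male 2, r of Cacna2d1 with Cacna1g was -0.98 (exact p = 0.00397, adjusted p = 0.0491). That set keeps female 1 and female 3, which stand apart. Cacng2 was correlated with no member beyond an absolute r of 0.23 over 9 arrays, and Cacna1a none beyond 0.37.

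**Figure D2:**
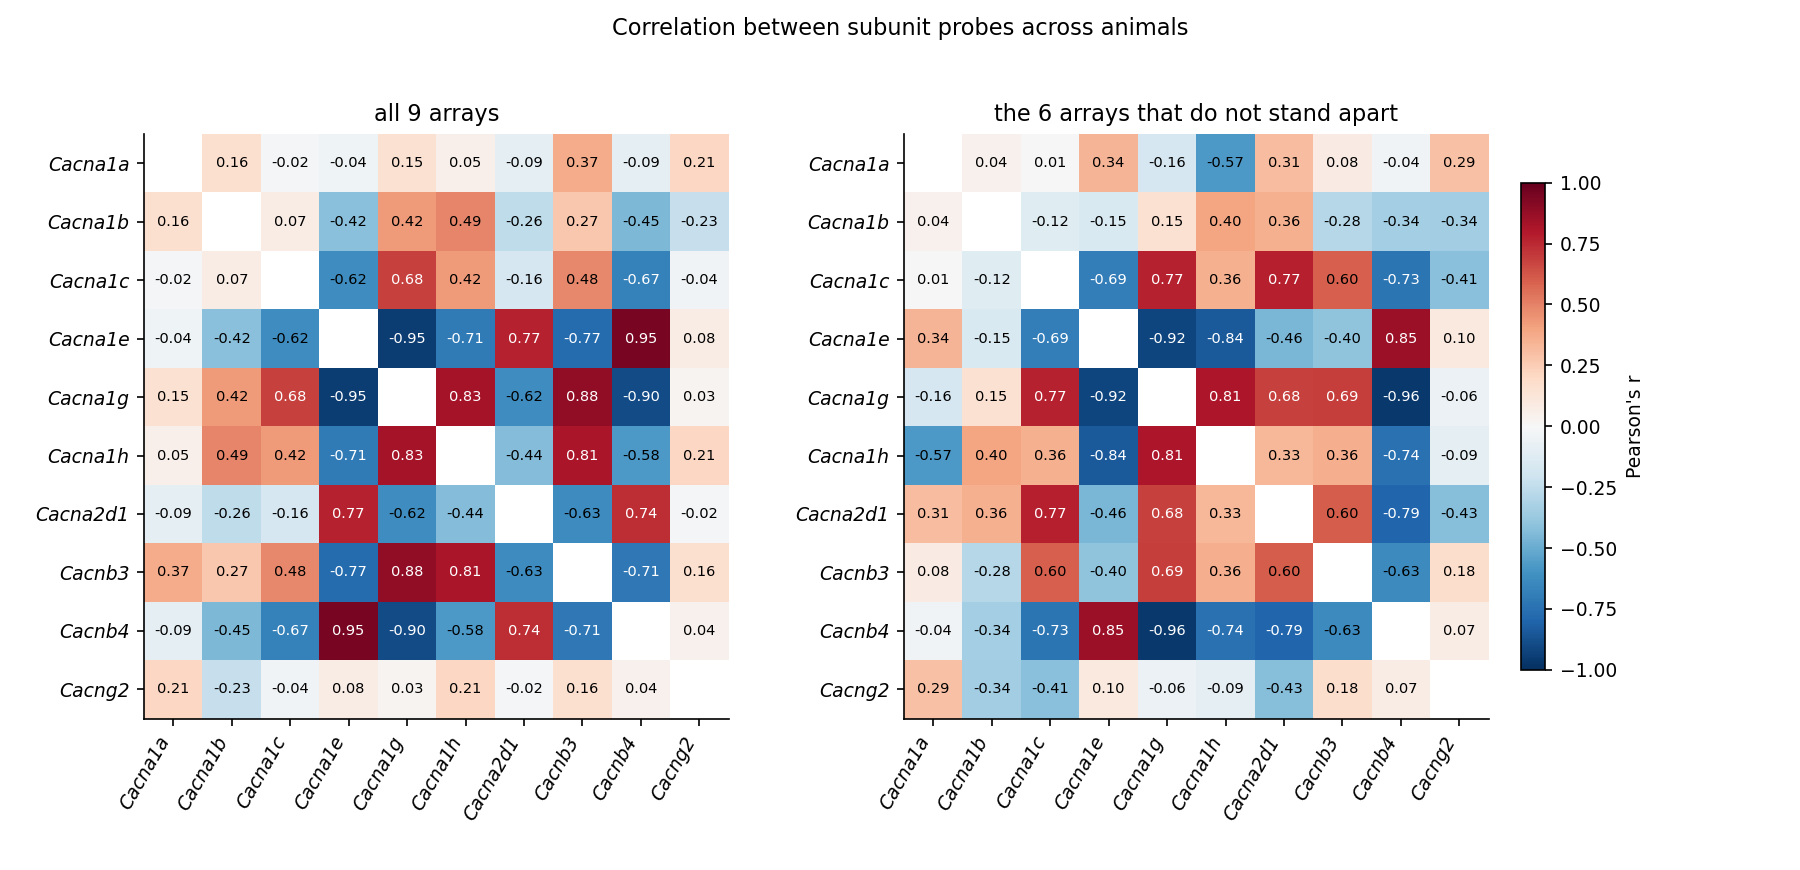
Pearson's r between the log2 intensities of pairs of subunit probes, across all 9 arrays (left) and across the 6 that do not stand apart (right), coloured from -1 (blue) to 1 (red). Cacna1g against Cacna1e reads -0.95 and -0.92, while Pearson's r of Cacna2d1 changes sign between the panels with every member except Cacng2. By rank, Cacna2d1 against Cacna1g over the 6 arrays is -0.029.

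**Figure D3:**
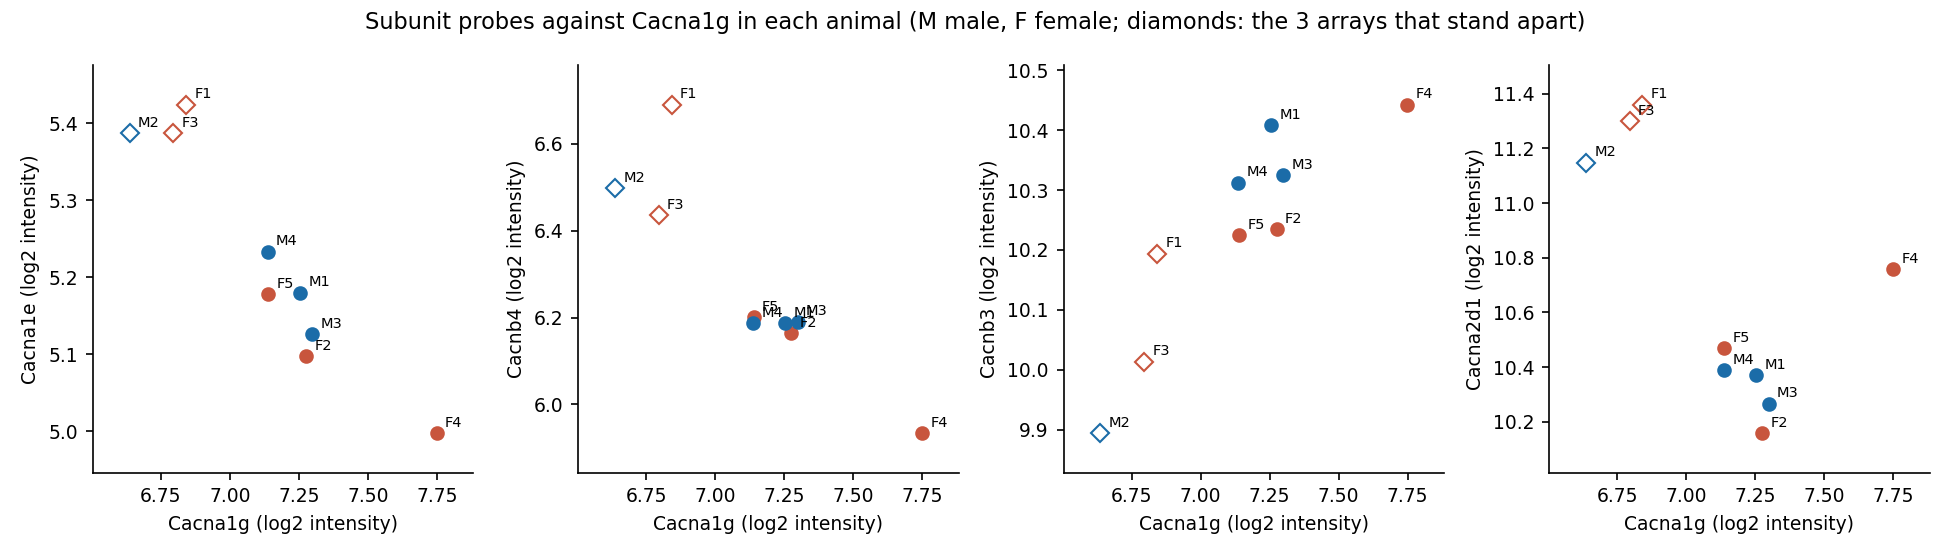
Log2 intensity of Cacna1e, Cacnb4, Cacnb3 and Cacna2d1 (y axes) against that of Cacna1g (x axis), 1 point per animal, males blue (M) and females red (F), with the 3 arrays that stand apart as open diamonds. Female 4 lies alone at the right, at a Cacna1g level of 7.75, and the diamonds lie at the left, from 6.64 to 6.84.

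The genes outside the channel family whose levels were most like each member's over the 9 arrays were taken from the 12370 tested probes by Pearson's r, as a description. With that many candidates some high coefficients are bound to occur. The r over the 6 arrays is given after each, and is no separate check because these arrays are among the 9 used to pick the genes. For Cacna1g they were Kcnip2, a calcium-binding partner of Kv4 potassium channels (0.97 and 0.96), and the kinesin Kif3c (0.97 and 0.97). For Cacna1h they were the LIM protein Fhl1 (0.97 and 0.92) and Epb42, a red cell membrane protein (0.96 and 0.91). For Cacna1e they were the cytochrome Cycs (0.97 and 0.94) and the kinase Dyrk1b (0.97 and 0.90).

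For Cacna2d1 they were Gpbp1 (0.98 and 0.92) and the replication protein Donson (0.97 and 0.89). For Cacnb4 they were the anion exchanger Slc4a2 (0.98 and 0.92) and the cohesin subunit Rad21 (0.98 and 0.85). For Cacnb3 they were the superoxide dismutase Sod1 (0.97 and 0.84) and the RNA polymerase III factor Brf2 (0.97 and 0.83). The likest genes of Cacna1a were Ccdc93 (0.95 and 0.95) and Tmem248 (0.89 and 0.91), and those of Cacna1b were Mvd (0.88 and 0.91) and Nop58 (0.87 and 0.90). Those of Cacna1c were Agt (0.90 and 0.92) and Recql5 (0.90 and 0.92), and those of Cacng2 were Lpar3 (0.92 and 0.92) and Tmem140 (0.91 and 0.88).

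Between irradiated males and irradiated females, no channel subunit passed the test. The largest difference among the 10 was that of Cacna2d1, with a mean of 10.54 ± 0.41 in the 4 males against 10.81 ± 0.52 in the 5 females (SD). This gave -0.27 ± 0.25 (male minus female, SE), with an adjusted p of 1.00 in limma over all 12370 probes. Without the 3 arrays that stand apart it was -0.12 ± 0.14, smaller in size than that of Cacna1g (-0.16 ± 0.15) or Cacna1b (-0.14 ± 0.13). With 1 animal left out it ran from -0.47 (without male 2) to -0.13 (without female 1), and with title number as a fixed block it was -0.48 ± 0.25. Cacna1h averaged 5.65 ± 0.43 in males and 5.86 ± 0.26 in females, a difference of -0.21 ± 0.19 (SE). Single animals moved it from -0.35 (without male 3) to -0.010 (without male 2), and without the 3 arrays it was -0.11 ± 0.16. The other 8 members differed by -0.08 to 0.01, each less than its SE. In limma 0 of 10 members were called, against 0% of all tested probes, and 0 had an unadjusted p under 0.05, against 1.94% of all.

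Females had the higher mean for 8 of 10 members, and the median male minus female difference was -0.07, against 49.1% of all tested probes and a median of 0.00 over them. Without the 3 arrays that stand apart, the female mean was the higher one for 6 of 10, as it was with title number as a fixed block. Some members ran together across animals, so the 10 are not separate readings. The first title number holds 2 males and 1 female, and of these male 2 and female 1 stand apart. Within it the difference was -0.60 for Cacna2d1 and -0.50 for Cacna1h. There Cacna1h read 5.06 in male 2 and 5.65 in male 1, against 5.85 in female 1. Within the second, with 2 of each sex, of which female 3 stands apart, it was -0.40 and 0.19. There Cacna2d1 read 11.30 in female 3 and 10.16 in female 2, against 10.27 and 10.39 in the males. The third number holds females only. With 4 and 5 animals, a difference the size of these SEs was not detectable.

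**Figure D4:**
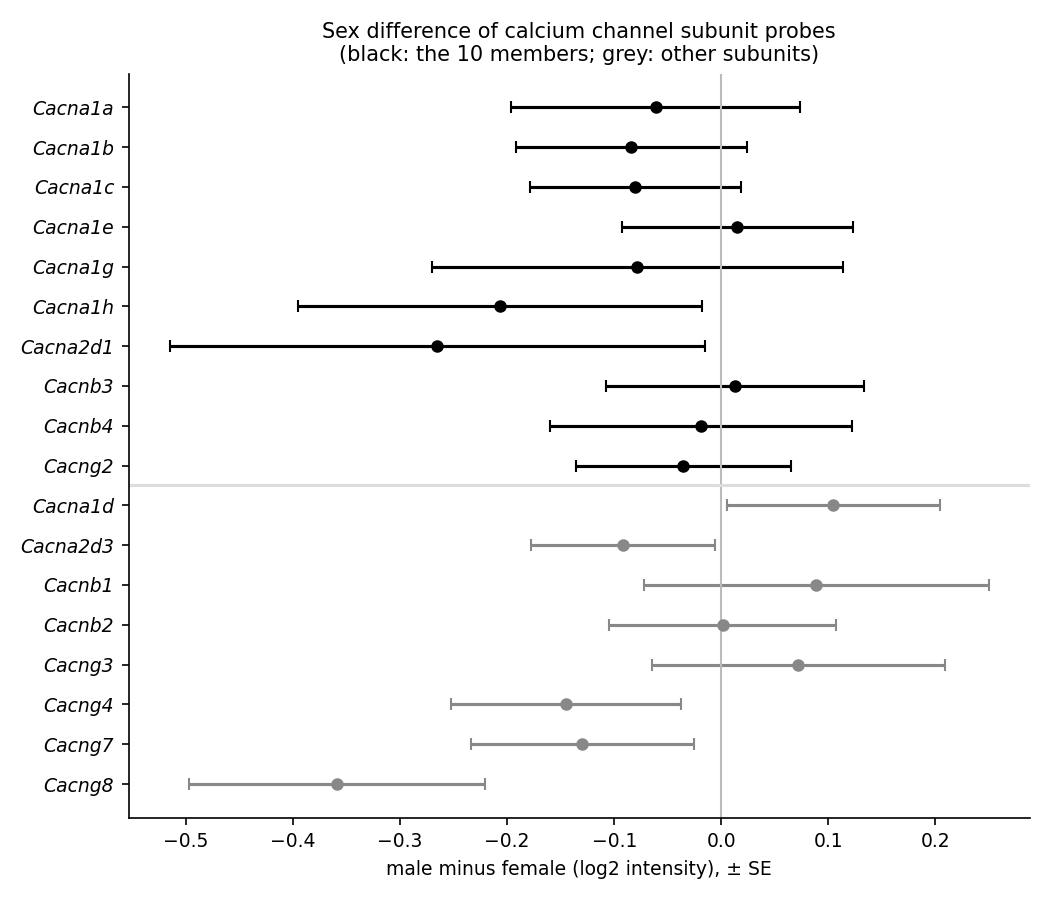
Male minus female difference in log2 intensity (x axis) with its SE, for the 10 members (black) and 8 other channel subunits (grey). Cacna2d1 at -0.27 and Cacna1h at -0.21 lie farthest from 0 among the members, and Cacng8 at -0.36 among the others.

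The remaining calcium channel subunits with a probe were Cacna1d, Cacna2d3, Cacnb1, Cacnb2, Cacng3, Cacng4, Cacng7 and Cacng8. Of these 8, 6 were above the bound on all arrays, Cacng8 on 7 and Cacng7 on 6. None of the 8 was called between the sexes by limma, against 0% of all tested probes. An unadjusted p under 0.05 was found for 1 of the 8, against 1.94% of all. This was Cacng8, a partner of AMPA receptors like Cacng2. It read 5.38, 4.67, 5.16 and 4.93 in males, against 5.28, 5.41, 5.21, 5.46 and 5.62 in females. It was below the bound in male 2 and male 4, and the sexes overlapped. Its difference was -0.36 ± 0.14 (SE), with an unadjusted p of 0.0227 and an adjusted p of 1.00 in limma. The other 7 differed by -0.14 to 0.10. Cacna2d3 was the steadiest of all 18 subunits, at an SD within sex of 0.09 and the 6.65th percentile, while its relative Cacna2d1 was the most variable.

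Between title numbers, with sex as a covariate, limma's F test called 0 of 10 members, against 0% of all tested probes. An unadjusted p under 0.05 was found for 1 of 10, against 9.23% of all. This was Cacnb4, at an unadjusted p of 0.0306 and an adjusted p of 0.534 in limma. Its F of 4.88 was 1.39 without female 1 and 0.17 without the 3 arrays that stand apart. It averaged 6.46 ± 0.25 in the first number (SD, n = 3), 6.24 ± 0.13 in the second (n = 4) and 6.07 ± 0.19 in the third (n = 2). Cacna1g followed at an unadjusted p of 0.0897 in limma, with means of 6.91 ± 0.31, 7.13 ± 0.23 and 7.44 ± 0.43, and its F of 3.03 was 0.22 without the 3 arrays. Of the 3 arrays that stand apart, 2 belong to the first number and 1 to the second.

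The genes that calcium channels work with were likewise not separated by sex. Over 7 lists, limma called 0 members higher in males and 0 higher in females, against 0% of all tested probes. Only 1 had an unadjusted p under 0.05, against 1.94% of all tested probes. Of 26 listed calcium stores, pumps and exchangers, 19 were tested, the female mean was higher for 14 and the median difference was -0.08. In it Itpr2, a store release receptor, was above the bound on 5 arrays and differed by -0.24 ± 0.09 (SE), at an unadjusted p of 0.0176 in limma, and the plasma membrane pump Atp2b2 by -0.29 ± 0.15. Of 26 tested calcium sensors and effectors (29 listed), females had the higher mean for 14, the median difference was -0.02, and examples were the kinase Camk2a at -0.33 ± 0.18 and Camkk2, a kinase that activates other calmodulin-dependent kinases, at -0.51 ± 0.35. Of 5 tested calcium buffers (6 listed), 3 leaned to females, the median difference was -0.01, and examples were Calb1 at -0.23 ± 0.15 and Calr at 0.02 ± 0.09.

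Of 19 tested partners at the release site (26 listed), males had the higher mean for 12, and the median difference was 0.05. The vesicle protein Sv2a, the target of levetiracetam, differed by 0.20 ± 0.11 and the adaptor Apba1 by -0.20 ± 0.12. Among 12 tested channel regulators (22 listed), 7 had the higher female mean, the median difference was -0.03, and examples were the channel-inhibiting GTPase Rem2 at 0.12 ± 0.08 and the anchoring protein Akap5 at -0.26 ± 0.23. Among 7 tested partners of Cacng2 (12 listed), 6 had the higher female mean, the median difference was -0.07, and examples were the glutamate receptor subunit Gria4 at -0.16 ± 0.11 and the scaffold Dlg3 at -0.10 ± 0.09. Among 4 tested calcium-activated and neighbouring channels (12 listed), 3 had the higher female mean, the median difference was -0.05, and examples were the potassium channel subunits Kcnmb4 at 0.14 ± 0.08 and Kcnma1 at -0.07 ± 0.12.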

How the data were processed

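Per the labels' protocols, 250 ng of cortical RNA was labelled with biotin and hybridised to an Illumina bead array. The authors deposited 1 linear intensity per probe for 22517 probes of each array, not normalised between arrays. They also deposited a table of log2 values for 15912 probes, which equal maxima mark as quantile normalised. Neither scanner software nor background correction is given in the sources used here. Intensities were corrected with normexp (offset 16), quantile normalised on the linear scale and then put on the log2 scale (limma 3.58.1, R 4.3.3). With no detection p-values, a bound was set from the 6605 probes left out of the table, and the 12370 probes above it on at least 4 of 9 arrays were tested. Males and females were compared with limma (lmFit, eBayes), two-sided, and title numbers with its F test, Benjamini-Hochberg adjusted over all tested probes. The script was tested on simulated data.

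The platform annotation gave 1 symbol to 10687 probes, none to 5225 of the value table, and all 10 members matched RefSeq by gene identifier. Named genes were all members, the other channel subunits, the 2 likest genes of each member and the 2 genes of each list with the smallest p. The members and lists were chosen with earlier results of these data known. Replicate numbers only name animals. The number of arrays limits precision. The labels do not say whether a title number marks a litter. Alternatives were the background step, normalisation, filter, the authors' log2 values, title number as a block and animals left out.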

Additional observations from a re-analysis of the deposited data

Results flagged for a closer look

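In the 4 males, 2 of the 18 channel subunits had 1 animal far from the others. Cacna2d1 read 11.1 on the log2 scale in male 2 and from 10.3 to 10.4 in the other males. Cacnb4 read 6.50 in male 2, while the other 3 males read 6.19. In both the gap made up more of the males' range than Dixon's 95% value allows. Of 36 groups checked, 2 were flagged, and chance flags about 1 in 20. Male 2 is 1 of the 3 arrays that stand apart.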

How the results depend on the processing

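No channel subunit was called between the sexes, nor any member between title numbers, under any alternative run. Probes called between the sexes numbered 0 to 2 with 1 animal left out (2 without male 1, 1 without male 4). Between title numbers they numbered 0 to 3 (3 without female 2 or female 5, 1 without male 4), 1 with no filter and 2 without the 3 arrays that stand apart. Pairs of members past the threshold numbered 4, and 0 over the 6 arrays, where too few pairings exist for a pair to pass on its own. With 1 animal left out, which was added after seeing the data, they numbered 2 to 10 (10 without female 1, 2 without male 2 or female 3). Without the 2 animals farthest from the median of the first gene of a pair, 4 passed, but not the same 4. They were Cacna1e with Cacna1g, Cacna1h and Cacnb4, and Cacna1g with Cacna2d1, each at an adjusted p of 0.0491 by the exact test. Small sex differences turned sign. Under median scaling Cacnb3 stood at -0.016 and Cacnb2 at -0.040. Without the 3 arrays Cacnb4 stood at 0.089, Cacng2 at 0.066 and Cacnb2 at -0.0067. With title number as a fixed block Cacna1b stood at 0.018, Cacna1c at 0.0069, Cacna1e at -0.094, Cacna1g at 0.15 and Cacnb2 at -0.021. With 1 animal left out the range was -0.15 to 0.066 for Cacna1a, -0.040 to 0.067 for Cacna1e, -0.17 to 0.070 for Cacna1g, -0.068 to 0.056 for Cacnb2, -0.045 to 0.13 for Cacnb3, -0.11 to 0.082 for Cacnb4, -0.088 to 0.014 for Cacng2 and -0.026 to 0.15 for Cacng3. The cause of these turns was not tested. No paired analysis was possible because the labels match no male to a female; title number, whose first and second values hold both sexes, was used as a block instead, and as a random block its consensus correlation was 0.0212. Cacna1a, near the bound, is the member that signal over background limits most.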
